A study of Rattus norvegicus with 4 samples.

Results

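The galectins were read on 4 oligonucleotide arrays that compared a pair of rat prostate tumour lines. The members were 6 of the 4737 genes named in the table: Lgals1, Lgals3, Lgals4, Lgals8, Lgals9 and Lgals3bp. Their probe sets were found by symbol in the platform annotation, which gave 8 of 8799 probe sets. A probe set is a group of short probes on the array that read the same transcript. The family was chosen on the signal differences between the lines on these same arrays, which were known when it was proposed, so those differences are given as a description and no member has a p-value. One further probe set was annotated to Lgals9 and Lgals5 together and belongs to neither gene alone. Both lines are Dunning R3327 sublines. Mat-Lylu is labelled highly metastatic (2 arrays), and G, the control of the design, is labelled non-metastatic (2 arrays). No treatment, passage or separate culture was named for either line, so the spread between arrays may be technical.

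Galectins are lectins that bind beta-galactoside sugars through a conserved carbohydrate recognition domain. They are made in the cytosol without a secretion signal, act both inside the cell and, after leaving it by an unconventional route, on the glycoproteins of the cell surface and matrix. Galectin-1 (Lgals1) has a single such domain and forms dimers, galectin-3 (Lgals3) joins its domain to a flexible tail through which it oligomerises, and galectins 4, 8 and 9 (Lgals4, Lgals8, Lgals9) carry a pair of different domains on one chain. Lgals3bp is not a galectin: it encodes a secreted glycoprotein that galectin-3 binds, and in mouse and human cells it is induced by interferon. In tumours the family has been studied for cell adhesion, for the formation of lattices between surface glycoproteins and for the control of T cells.

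Mat-Lylu arrays had lower signals than G arrays for Lgals3bp, Lgals9 and Lgals8, and a higher signal for Lgals3. For Lgals9 the size depended on the probe set, at 2.46-fold lower on one and 1.15-fold lower on the other. The Lgals3bp difference was the largest of the 8, at 7.55-fold lower on one probe set and 1.80-fold lower on the other. Lgals3, which encodes the lectin that binds the Lgals3bp protein, was 1.51-fold higher. Lgals4 differed by 1.06-fold. Lgals1 lay at the top of the signal range on every array, where no difference between the lines could be measured. All 8 probe sets were above the background level on all 4 arrays.

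The arrays had median signals of 2998 and 3015 in Mat-Lylu and 3156 and 3049 in G. Signals are MAS5 signals on a linear scale. For each array a background level was set from its 23 control probe sets for bacterial, yeast or mouse sequences, at their 95th percentile, and the levels ran from 1891 to 2311. The highest signal of an array was 46422 and 45582 in Mat-Lylu and 47120 and 64036 in G, so G replicate 1 reached further up than the other arrays. Log2 differences are Mat-Lylu minus G on the log2(signal + 16) scale with the standard error (SE) of a limma fit to 6555 probe sets, and folds are ratios of the mean signals of the lines. In bulk RNA such as this, fewer cells of a type and less RNA per cell cannot be told apart. A single probe set compared exactly, 2 arrays against 2, cannot give a 2-sided permutation p under 0.333.

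Lgals3bp was read by an _at probe set and by an _f_at probe set, a suffix that marks probes which may match a family of related sequences. The _at probe set gave 3964 and 4203 on the Mat-Lylu arrays, against 28915 and 32718 on the G arrays. The lines were far apart, and the Mat-Lylu arrays were above their background levels of 1891 and 2311. The log2 difference was -2.91 (SE 0.10), and 47 of the 6555 probe sets had a lower one. The _f_at probe set gave 17122 and 16869 in Mat-Lylu, against 26924 and 34362 in G. Its log2 difference was -0.84 (SE 0.13). Both probe sets placed Mat-Lylu below G without overlap, but by different amounts. Within an array, the log2 ratio of the _f_at to the _at probe set was 2.11 and 2.005 in Mat-Lylu and -0.10 and 0.07 in G. The G arrays differed from each other by 24.3% of their mean on the _f_at probe set and by 12.3% on the _at probe set, with G replicate 1 the higher on both.

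Lgals9 encodes galectin-9, a tandem-repeat galectin that is also induced by interferon. Its _g_at probe set gave 3915 and 3800 in Mat-Lylu, against 9563 and 9422 in G, a log2 difference of -1.30 (SE 0.08) and 2.46-fold lower. Its _at probe set, designed from the same sequence entry, gave 4577 and 4701 in Mat-Lylu, against 5420 and 5265 in G, which is 1.15-fold lower (log2 difference -0.20, SE 0.08). Neither probe set overlapped between the lines, and the size of the difference depended on the probe set. The log2 ratio of the _g_at to the _at probe set was -0.23 and -0.31 in Mat-Lylu and 0.82 and 0.84 in G. The probe set shared by Lgals9 and Lgals5, the rat gene for galectin-5, gave 3709 and 2617 in Mat-Lylu, against 10154 and 10691 in G (log2 difference -1.74, SE 0.15). It cannot be assigned to either gene. Its Mat-Lylu arrays differed by 34.5% of their mean, and both still lay below both G arrays.

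The sequence before the start of Lgals3bp and of Lgals9 is shown because both were lower in Mat-Lylu and both hold a match to the interferon-stimulated response element, the DNA pattern that interferon-activated transcription factor complexes bind. The 250 bases before the annotated start come from the RefSeq promoter table of GRCr8, which held 4 of the 6 genes, and are written 5′ to 3′ on the strand of the gene, with the match in capitals. The pattern searched, on both strands, was GAAA, then any 2 bases, then GAAAC. Lgals3bp is at chr10:104127849-104128098, minus strand, and Lgals9 at chr10:64428071-64428320, minus strand.
Lgals3bp: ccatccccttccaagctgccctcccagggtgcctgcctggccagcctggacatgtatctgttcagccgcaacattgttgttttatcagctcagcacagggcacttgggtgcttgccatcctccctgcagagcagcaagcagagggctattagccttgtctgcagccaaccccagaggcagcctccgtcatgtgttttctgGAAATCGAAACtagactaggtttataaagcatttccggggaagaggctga
Lgals9: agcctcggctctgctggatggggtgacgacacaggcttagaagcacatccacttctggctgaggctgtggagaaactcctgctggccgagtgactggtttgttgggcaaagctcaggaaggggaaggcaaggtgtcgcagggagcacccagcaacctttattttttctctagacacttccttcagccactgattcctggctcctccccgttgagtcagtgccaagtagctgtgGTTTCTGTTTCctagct
The match before Lgals3bp reads GAAATCGAAAC and ends 39 bases before the start. The match before Lgals9 lies on the opposite strand, as GTTTCTGTTTC, and ends 6 bases before the start. The same window of Lgals8 and of Lgals4 held no match. Of 27457 promoters in the table, 199 (0.725%) held the pattern. The gamma-activated site TTCNNNGAA, another interferon pattern that neither contains nor is contained in the first, was in 7.52% of promoters and in none of the 4. A match describes letters and not a bound site.

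**Figure D1:**
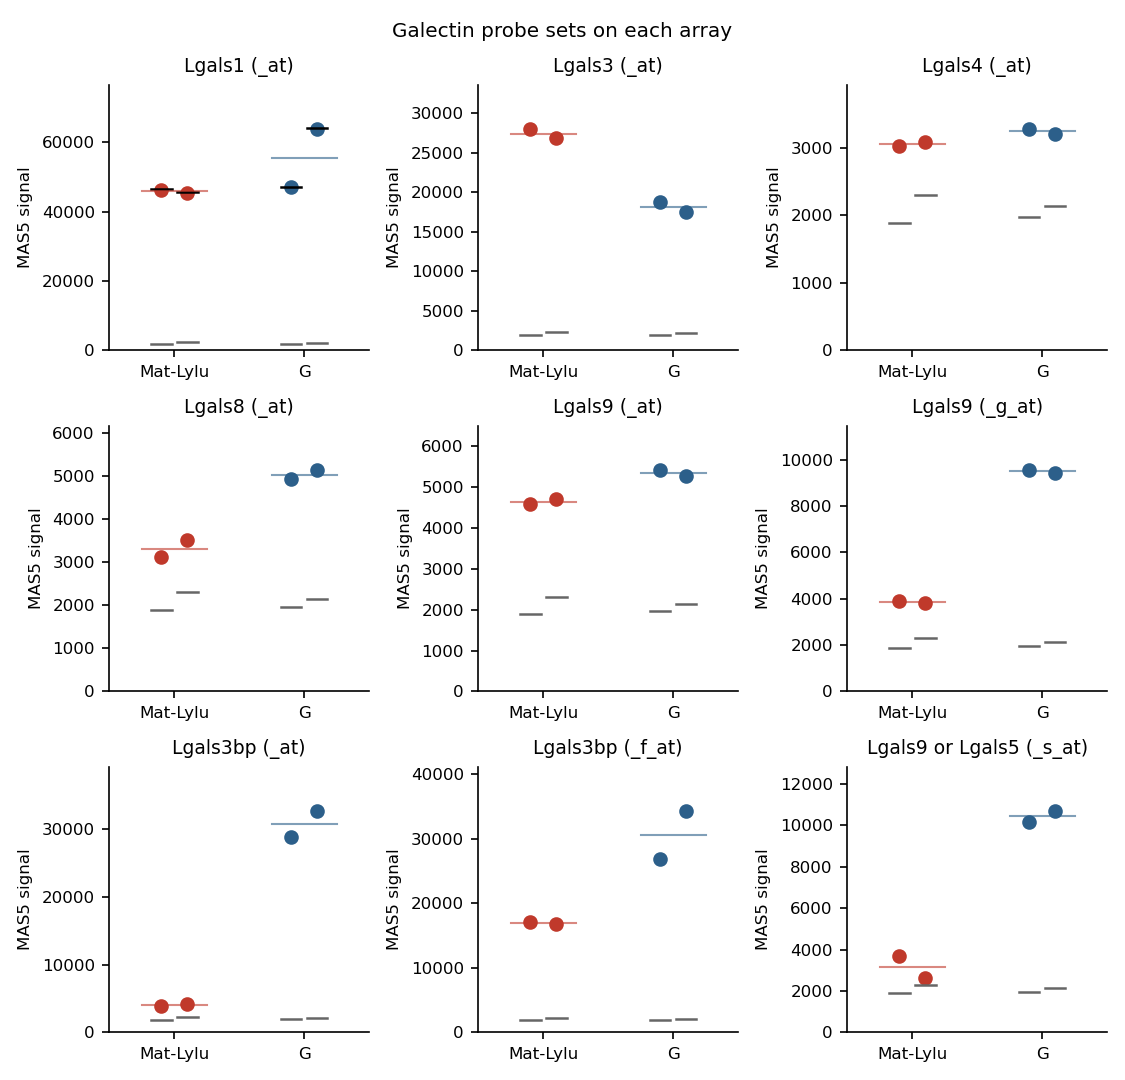
MAS5 signal (linear axis from 0) of the 8 galectin probe sets and of the probe set shared by Lgals9 and Lgals5 on each array, with Mat-Lylu in red and G in blue. Coloured lines are line means, grey ticks the background level of each array and black ticks, for Lgals1, the highest signal of each array; the Lgals1 points sit on those black ticks, and Lgals3 is the panel in which Mat-Lylu lies above G.

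The other tandem-repeat members were Lgals8 and Lgals4. Galectin-8 binds integrins and sialylated glycans, and inside the cell it marks damaged vesicles. Lgals8 gave 3117 and 3508 in Mat-Lylu, against 4929 and 5149 in G. The Mat-Lylu arrays were both lower, 1.52-fold on average, with a log2 difference of -0.60 (SE 0.09). Lgals4 encodes galectin-4, known mainly from the epithelium of the gut. It gave 3029 and 3092 in Mat-Lylu, against 3285 and 3212 in G. The lines did not overlap, yet the log2 difference was -0.09 (SE 0.08), about the size of its error. With a common array median it was -0.04.

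Lgals3 was the member with the higher signal in Mat-Lylu. It gave 28028 and 26833 in Mat-Lylu, against 18791 and 17452 in G, with a log2 difference of 0.60 (SE 0.10). The lines were well separated, since the arrays of a line differed by 4.36% of their mean in Mat-Lylu and by 7.39% in G. Among the 6555 probe sets, 472 had a higher log2 difference. Lgals3 and the _f_at probe set of Lgals3bp were both bright in both lines and lay on opposite sides of 0.

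Lgals1, the prototype galectin, gave 46309 and 45472 in Mat-Lylu, against 47027 and 63917 in G. Each value was 99.8% of the highest signal on its own array, so Lgals1 was saturated on all 4 arrays and no fold is given. The G array that stands apart is the one whose scale reached 64036. Under quantile normalization, which gives all arrays the same top value, the log2 difference was -0.0011, against -0.26 on the deposited scale, and without G replicate 1 it was -0.04. The 3 genes whose profiles over the 4 arrays were most like that of Lgals1 were Gnas, COX3 and Rplp0, with root mean square differences of their centred log2 profiles from 0.00015 to 0.00070. Their signals on G replicate 1 were 63951, 63942 and 63999, likewise at the top of that array. Lgals1 was therefore bright in both lines, with no measured order between them.

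In the fit over all probe sets, 5 of the 8 galectin probe sets passed an adjusted p of 0.05 (Benjamini-Hochberg, limma), where 34.1% of all 6555 did. Lgals3 was the 1 that passed as higher, where 13.9% of all probe sets did. The 4 that passed as lower were both of Lgals3bp, the _g_at probe set of Lgals9 and that of Lgals8, where 20.3% of all did. Lgals1, Lgals4 and the _at probe set of Lgals9 did not pass. With the saturated Lgals1 left out, the lines did not overlap for 7 of 7 galectin probe sets, and they did not for 67.7% of all probe sets tested. The median log2 difference was -0.60 over those 7 and -0.03 over all probe sets. Since the members were proposed with these differences in view, the counts describe them and show nothing further.

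**Figure D2:**
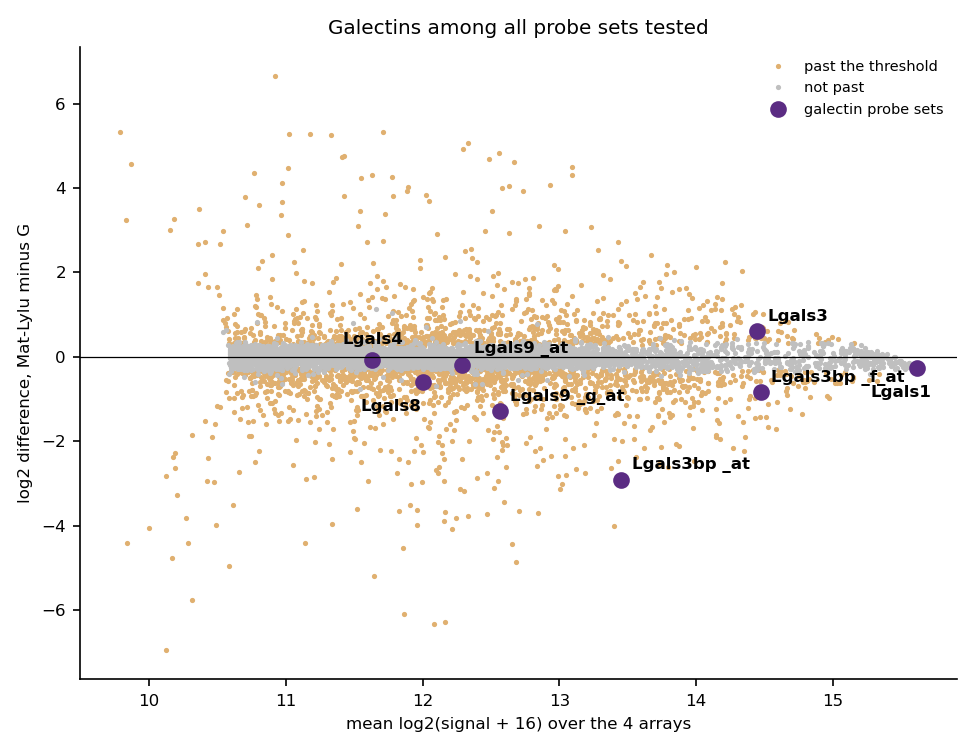
Log2 difference (Mat-Lylu minus G) against the mean log2(signal + 16) over the 4 arrays for the 6555 probe sets tested, with those past the threshold in orange, the others in grey and the 8 galectin probe sets in purple. The _at probe set of Lgals3bp lies lowest of the 8 at -2.91, Lgals3 lies above 0 at 0.60, and Lgals1 lies at the right edge of the signal range.

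Of the other galectin genes listed, Lgals7 and Grifin, the lens galectin relative, had named probe sets. Both were below the background level on all 4 arrays and neither was tested. Lgals7 averaged 1040 ± 44.0 in Mat-Lylu and 1170 ± 118 in G, and Grifin averaged 972 ± 16.8 in Mat-Lylu and 868 ± 52.4 in G (SD, n = 2 arrays each).

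Genes that carry the response element were then read as a group, with Lgals3bp and Lgals9 set aside. The pattern was chosen after the promoters had been read and with the lower interferon genes of these arrays already known, so the counts are a description. Of 22 other genes tested that held it, 11 were lower in Mat-Lylu, 4 were higher and 7 did not pass. That is 50% lower and 18.2% higher with the pattern, against 18.7% lower and 14.9% higher among the 3138 genes whose promoter lacked it. The median log2 difference was -0.24 with the pattern and -0.02 without. Among the lower genes, named after their values were seen, were Ifitm3, which encodes a membrane protein that restricts virus entry (2904 ± 19.7 in Mat-Lylu and 23690 ± 565 in G), the interferon regulatory factor gene Irf7 (2518 ± 99.2 in Mat-Lylu and 15454 ± 1515 in G) and Oas1a, of the oligoadenylate synthetases (2963 ± 27.1 in Mat-Lylu and 11506 ± 564 in G). Gpr15lg (8.46-fold), Serp1, the chemokine gene Cxcl10 and Ppox were higher. Of the 11 lower genes, Il6st and Stambp were under the background level on all 4 arrays. With a floor at the background level 7 were lower and 4 higher, and the median was -0.03. With the lower 50% of probe sets left out, 5 of 13 were lower and 4 higher, and the median was -0.13. Shares among genes without the pattern are not given for these settings.

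**Figure D3:**
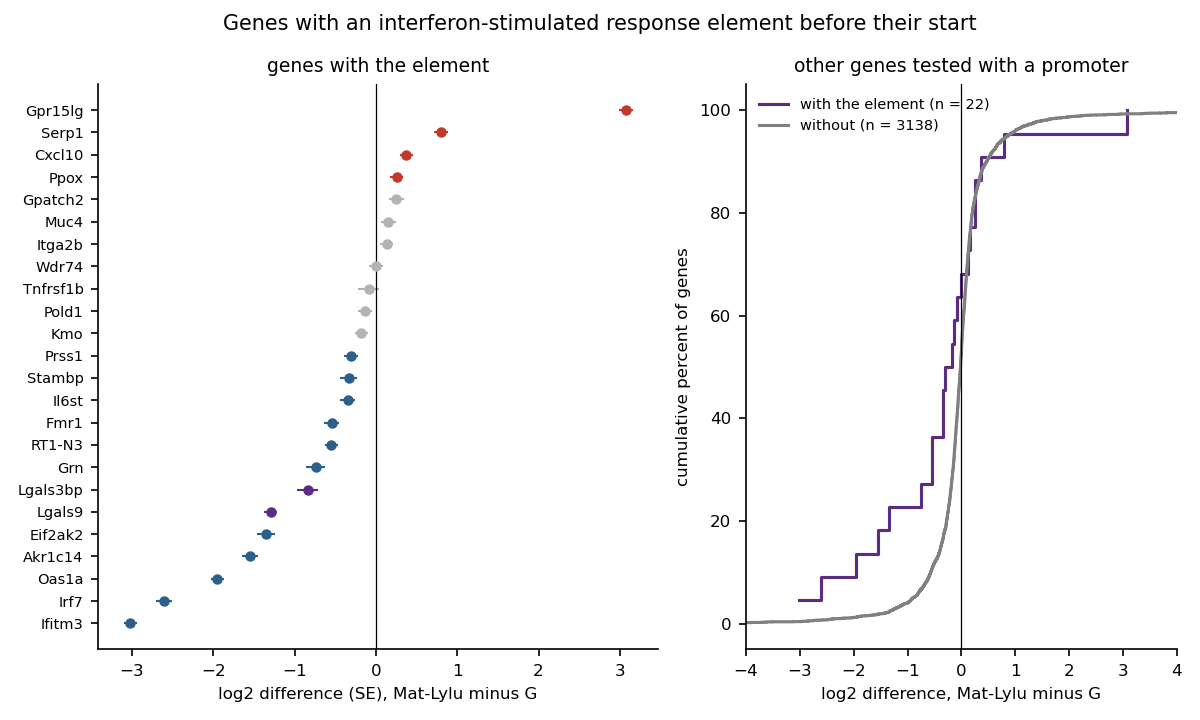
Left, log2 difference with its SE (Mat-Lylu minus G) of each gene tested that held the response element in the 250 bases before its start, with the galectin-related members in purple, genes past the threshold as higher in red or lower in blue, and the others in grey. Right, the cumulative percent of genes at each log2 difference for the 22 other genes with the element and the 3138 without, the members left out; the purple curve lies to the left of the grey one below 0.

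Galectins act through the glycoproteins they bind, so 45 surface and matrix ligands were followed. This list and the partner lists below were chosen with earlier results of these data known. Their counts and adjusted p-values are therefore a description. Of 31 tested, 6 rose and 10 fell in Mat-Lylu and 15 did not pass, where 14.1% of the 3866 genes tested rose and 19.7% fell. Their median log2 difference was -0.05, and it was -0.02 over all genes. Lamp1, a lysosomal membrane glycoprotein that galectin-3 binds, fell 5.87-fold to 5819 and 5348 in Mat-Lylu, against 32133 and 33463 in G (adjusted p = 5.2e-07). It had 3 probe sets, 2 of which fell, and their mean gave a log2 difference of -0.97. Its relative Lamp2, named after its values were seen, fell 1.59-fold (adjusted p = 0.0010), on all 3 of its probe sets. Tfrc, the transferrin receptor, fell at least 1.88-fold. Thy1, a surface glycoprotein of fibroblasts and T cells, fell at least 5.01-fold (adjusted p = 2.1e-06). Spn, the sialoglycoprotein CD43, which galectin-1 binds on T cells, rose at least 6.31-fold (adjusted p = 3.4e-08). Itgb1, the integrin beta chain shared by many matrix receptors, rose 1.80-fold (34610 and 34418 in Mat-Lylu, 20730 and 17689 in G, adjusted p = 0.00074), and the hyaluronan receptor gene Cd44 rose 2.88-fold.

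Among 22 enzymes and transporters of glycan synthesis tested, 5 rose, 2 fell and 15 did not pass, with a median log2 difference of 0.05. Over all genes tested, 14.1% rose and 19.7% fell. B4galt6, which makes lactosylceramide, rose at least 2.08-fold (4452 and 4093 in Mat-Lylu, 1258 and 1257 in G), and Ugcg, which makes its precursor glucosylceramide, at least 1.55-fold on 1 of 2 probe sets. St3gal5, which turns lactosylceramide into the ganglioside GM3, fell 1.61-fold (4292 and 4270 in Mat-Lylu, 7502 and 6288 in G). In the N-glycan branch, Mgat2 rose at least 1.59-fold. St6gal1, which adds the sialic acid that hinders galectin binding to N-glycans, rose 1.34-fold (adjusted p = 0.0065), a call lost without Mat-Lylu replicate 1 (adjusted p = 0.056). Mgat5, whose branches carry the poly-N-acetyllactosamine chains that galectin-3 prefers, averaged 3604 ± 424 in Mat-Lylu and 2955 ± 196 in G (SD, n = 2 each) with a log2 difference of 0.28 (SE 0.11), and missed the threshold (adjusted p = 0.081). It passed with quantile normalization (adjusted p = 0.048), a common array median (0.039) and adjustment over gene means (0.046). Mgat5 missed the threshold in every other fit to all arrays (adjusted p from 0.060 to 0.093). Its log2 difference was 0.40 without Mat-Lylu replicate 0 and 0.16 without Mat-Lylu replicate 1. It was 0.35 without G replicate 0 and 0.21 without G replicate 1, so its size depended on single arrays.

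Of 8 intracellular and signalling partners tested, 2 rose, 1 fell and 5 did not pass, with a median log2 difference of 0.03. The shares over all genes tested were 14.1% higher and 19.7% lower. Tgfb1, the growth factor TGF-beta, rose 2.54-fold (6309 and 8168 in Mat-Lylu, 3065 and 2632 in G, adjusted p = 0.00017). Anxa7, an annexin that galectin-3 was found to bind, rose 1.46-fold. Prkaa2, a catalytic subunit of AMP-activated kinase, fell at least 1.99-fold, with both Mat-Lylu arrays under background at 244 and 228, against 4588 and 3772 in G. Bcl2, an apoptosis inhibitor bound by galectin-3, had a log2 difference of -0.01 (SE 0.09, adjusted p = 0.96).

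**Figure D4:**
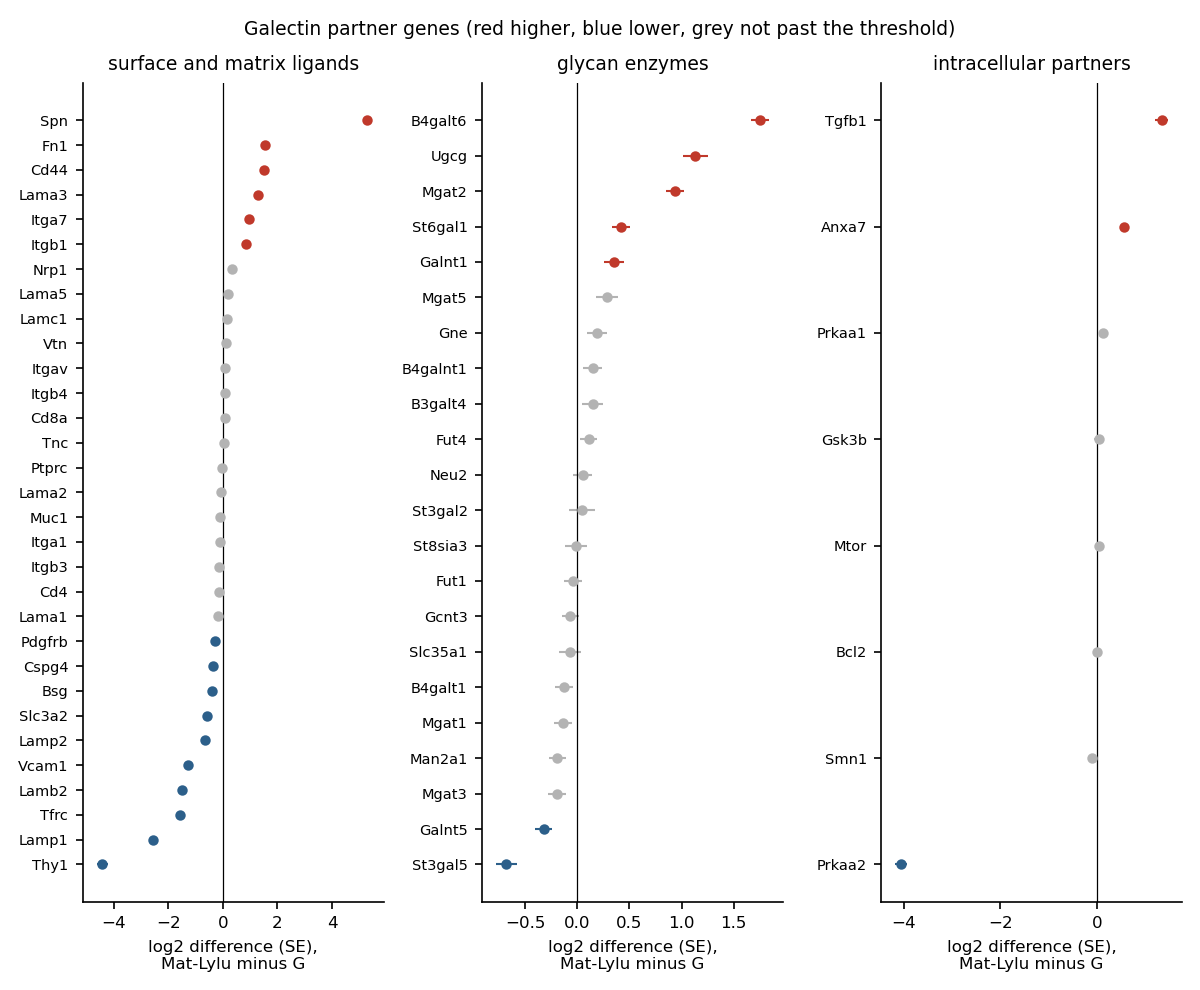
Log2 difference with its SE (Mat-Lylu minus G) of the genes tested in each partner list, red where higher, blue where lower and grey where the threshold was not passed; bars shorter than the points are hidden. Spn at 5.28 and Thy1 at -4.42 are the ends of the ligand list as drawn, and Lamp1 lies at -2.55. Spn was under background in G and Thy1 in Mat-Lylu. With a floor at the background level Spn was at 2.65, Thy1 at -2.31 and Lamp1 still at -2.55.

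Profiles like those of the members were sought over the 4 arrays, by the root mean square difference of log2 profiles centred on their own means. With 4 arrays of 2 lines such likeness mostly restates the line difference. Closest to Lgals3 were Tmed10 (0.014), Eif2s1 and Arg1, closest to the _g_at probe set of Lgals9 were Alas1 (0.036), Akr7a2 and H2ax, and closest to the _f_at probe set of Lgals3bp were RT1-CE16 (0.057), Zfp148 and Mgst1. For Lgals8 they were Suclg1 (0.025), Rsad2 and Cgrrf1, and for Lgals4 they were Nol3 (0.0082), Pcp4l1 and Pi4kb. RT1-CE16 gave 24179 and 22048 in Mat-Lylu, against 38461 and 49652 in G.

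Markers of other cell types were read beside these results. All 8 fibroblast markers, Thy1 of the ligand list among them, fell in Mat-Lylu. Of these, Pdgfrb lost its call under 4 of 13 alternatives (adjusted p from 0.051 to 0.14), namely a common array median and the removal of either Mat-Lylu array or of G replicate 0. For Pdgfra the call did not hold once dim values were raised to background (adjusted p = 0.42). The 8 had a summed signal of 12282 to 12470 in Mat-Lylu and 150754 to 152814 in G, and they move with the lower galectin signals; their part in the result was not tested. Of 6 leukocyte markers tested, 0 passed in limma and 0 had an unadjusted p under 0.05. Their summed signal with the 3 not tested was 31193 to 32135 in Mat-Lylu and 30045 to 31811 in G; Itgam, Lyz2 and Cd3g were under the background level in both lines. Of 4 epithelial markers tested, Krt8 rose and 3 did not pass, with a summed signal over 6 measured of 49998 to 50469 in Mat-Lylu and 9603 to 10980 in G. Without Krt8 the other 5 summed to 8563 and 8948 in Mat-Lylu and 9001 and 7912 in G, which overlap. Of the prostate markers, Pbsn and Tgm4, secreted by the rat prostate, were under the background level on all 4 arrays, and Folh1 did not pass. Of 2 endothelial markers tested, 0 passed in limma, also at an unadjusted p under 0.05.

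**Figure D5:**
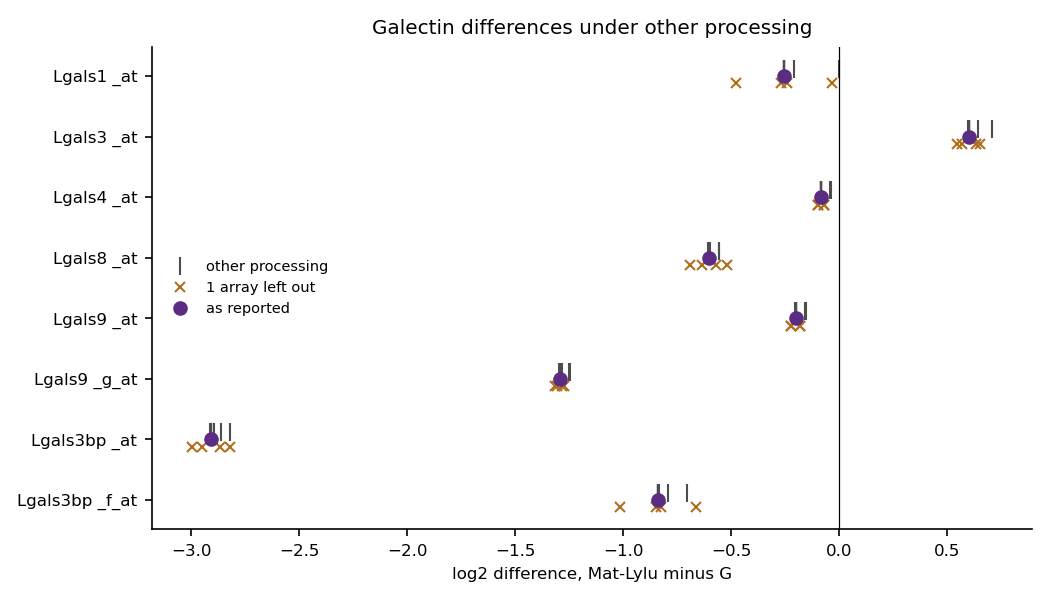
Log2 difference (Mat-Lylu minus G) of each galectin probe set as reported (purple circle), under other processing of all 4 arrays (grey ticks) and with 1 array left out (orange crosses). The 7 probe sets that were not saturated kept their side of 0; the Lgals1 values follow the top of each array's scale and carry no direction.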

How the data were processed

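Total RNA of the Mat-Lylu and G lines was hybridised as biotinylated cRNA, with 2 arrays a line, grouped by sample title. The authors deposited 1 table of probe set intensities, on a linear scale, and the submitters' processing notes name MAS5 (version, scaling target and filters not given in the sources used here). Symbols came from the platform annotation and were updated through GRCr8 RefSeq gene identifiers (6994 of 7018 probe sets with 1 symbol; 308 had several and 1473 none, and none of these was named). Here 59 control probe sets and the 25% of the others with the lowest mean signal were left out. The remaining 6555 were fitted on log2(signal + 16) with limma 3.58.1 in R 4.3.3 (lmFit, eBayes with an intensity trend, 2-sided, Benjamini-Hochberg over all 6555, threshold 0.05). The fit was tested on simulated data with independent noise between arrays. That checked the procedure only and does not bear on the calls made here. Of several probe sets of a gene, the brightest one tested stood for it. A gene under the background level on both arrays of a line has a bound, written "at least", with the dim values raised to that level. Signals within 5% of an array's highest were taken as saturated.

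Every member probe set is named; of each list, up to 5 genes with the smallest p whose lines did not overlap, and Lamp1, Mgat5, Itgb1 and Bcl2 in any case. The members, lists, markers and limits were chosen with earlier results of these data known. Alternatives were 2 pseudocounts, 2 filters, 2 scalings, eBayes without the trend, a block for the replicate number, a floor at background, removal of saturated probe sets, each array left out and the mean of a gene's probe sets. Titles number the arrays of each line 0 and 1, and deviations of same-numbered arrays correlated at 0.16 over probe sets; 2 pairs do not settle whether the numbers pair the arrays. The number of arrays limits the precision.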

Additional observations from a re-analysis of the deposited data

How the results depend on the processing

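Over the 14 alternatives, 689 to 1142 probe sets were higher and 986 to 1489 lower in Mat-Lylu (908 and 1330 as reported); with 1 array left out the ranges were 702 to 1024 and 986 to 1332. The galectin probe sets past the threshold numbered 5 in every fit to all 4 arrays. The partner genes past it numbered 18 to 29 in those fits. As reported they were 26 of 61 tested, 13 higher and 13 lower, where 14.1% of all genes were higher and 19.7% lower. The replicate number as a block gave 967 higher and 1421 lower probe sets, 5 galectin probe sets and 27 partner genes, and changed no count by over 1.5 times. The 11 lower genes with the response element became 7 with a floor at the background level and 5 of 13 with the lower 50% left out, where fewer genes were tested; they were 8 to 10 with 1 array left out, and this count and its alternatives were added after seeing the data. None of the 7 galectin differences that were not saturated changed sign. Leaving out G replicate 0 or 1 moved the saturated Lgals1, whose sign carries no order, to -0.48 or -0.04 and the Lgals3bp _f_at probe set to -1.02 or -0.66. Saturation at the top of the scale limits Lgals1, and 33.8% to 40.4% of rat probe sets lay under background.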
